A study of Mus musculus with 70 samples.

Results

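Neural tube (NT) was compared with forebrain (FB), midbrain (MB) and hindbrain (HB) of the mouse embryo at embryonic day 12.5 (E12.5) by the promoter interactions called for each gene. The 8 libraries, 2 of each tissue, were taken by tissue and stage from the sample labels, and no measured value entered the choice. They are 8 of the 24 H3K4me3 PLAC-seq libraries and 8 of all 70 libraries of the series. PLAC-seq ligates DNA ends that lie close together in fixed nuclei and enriches the ligated pairs with an antibody to H3K4me3, a histone mark of promoters. The tissues came from C57BL/6N mice, with no transgene, mutation or treatment given in any group. The extent of the neural tube that was dissected and the number of embryos behind a library are not given in the sources used here. Both libraries of a tissue are labelled as biological replicates. The tests of NT against brain take FB, MB and HB together as brain. Their p-values thus rest on the spread between libraries of a tissue and also on differences between the brain regions. In fits with a separate mean for each tissue, the p-values rest on the spread between libraries of the same tissue.

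Neural tissue of the trunk carries a Hox code. The Hox genes encode transcription factors, lie in the HoxA, HoxB, HoxC and HoxD clusters, and are expressed along the head-to-tail axis in the order in which they lie on the chromosome. Genes of low group number are used from the hindbrain backwards and genes of high group number in the trunk and tail, whereas forebrain and midbrain use transcription factors such as Six3, Otx1 and Lhx2. CTCF, a DNA-binding factor with zinc fingers, can anchor chromatin loops.

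An interaction is a pair of 10-kb bins, 20 kb to 1 Mb apart, that the authors called. The call required a false discovery rate (FDR) under 1% and at least 2 times the read pairs expected. Only pairs with an H3K4me3 peak of the same tissue in at least 1 bin were tested by the authors. A bin with a peak in some tissues only can thus differ in calls for that reason. For comparisons across tissues the paper called interactions again with the peaks of all tissues joined, and those calls were not used here. The NT libraries held 23690 and 21181 interactions and the brain libraries from 16075 to 33700. Totals did not separate the groups, at 22436 ± 1774 (SD, n = 2) in NT and 25228 ± 7102 (SD, n = 6) in brain (p = 0.607, 2-sided exact permutation test). The smallest p that 28 splits of 8 libraries allow is 0.0357. These splits take libraries of the same tissue as independent, so the p-value is one of libraries and not of tissues. The smallest number of read pairs behind a call was 12 in NT replicate 2 and 6 or 7 in the other libraries. NT replicates shared 12159 interactions, a Jaccard index of 0.372, against 0.335 to 0.349 between NT and HB libraries, 0.320 to 0.339 with MB and 0.300 to 0.312 with FB. In tissues of mixed cells, more cells with an interaction and more contact in each cell cannot be told apart.

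The regional labels were checked with marker genes of each region. All 11 NT markers, Hox genes of trunk level, had their highest mean number of interactions in NT. Of the FB markers, 5 of 6 were highest in FB (Nkx2-1 was not), and of the MB markers, 3 of 4 were highest in MB (Dmbx1 was not). Of the 5 HB markers, such as Hoxb2 and Egr2, none was highest in HB. All 5 were highest in NT, with summed scaled numbers of 59.3 and 78.6 in NT, 38.9 to 47.3 in HB and 7.4 to 19.9 in FB and MB. These markers therefore set NT and HB apart from FB and MB, but do not set HB apart from NT.

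Of the 11 genes that differed between NT and brain, 8 had more interactions in NT, and 6 of those 8 are genes of the HoxA or HoxC cluster. For each gene, interactions with an end in a bin that holds one of its protein-coding transcription start sites (TSS) were counted and scaled to the median library total of 23791. Of 20807 autosomal protein-coding genes, 4805 reached a mean scaled number of 1 and were tested. In NT, 8 genes were higher (0.166% of genes tested) and 3 were lower (0.0624%) at an adjusted p under 0.05, with 445 at an unadjusted p under 0.05. The 8 higher genes were Zfp385a, Hoxc9, Gm28308, Hoxa7, Hoxc11, Hoxa9, Hoxc10 and Hoxc5, and the 3 lower genes were Lhx9, Cntfr and Il11ra1. The 8 higher genes rest on 10 distinct TSS bins, since Hoxa7 shares bins with Gm28308 and Hoxa9, and Hoxc10 with Hoxc5. The median log2 difference of all genes tested was 0.125, so a gene without any change relative to the others sits slightly above 0.

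The calls need both NT libraries. Without NT replicate 1 no gene passed in either direction (0 calls by limma, 301 genes at an unadjusted p under 0.05), and likewise without NT replicate 2 (0 calls, 342 genes). In these fits the lone NT library is assumed to vary like the brain libraries, which alone give the spread. All 11 genes kept an unadjusted p under 0.05 in both of these fits, and without any 1 of the 8 libraries the log2 difference was 2.06 to 2.75 in Hoxc9, 1.72 to 2.08 in Hoxa7 and -2.79 to -2.50 in Lhx9. Without scaling to library totals, 1 gene was higher and 2 were lower (33.3% of calls higher, against 72.7%).

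**Figure D1:**
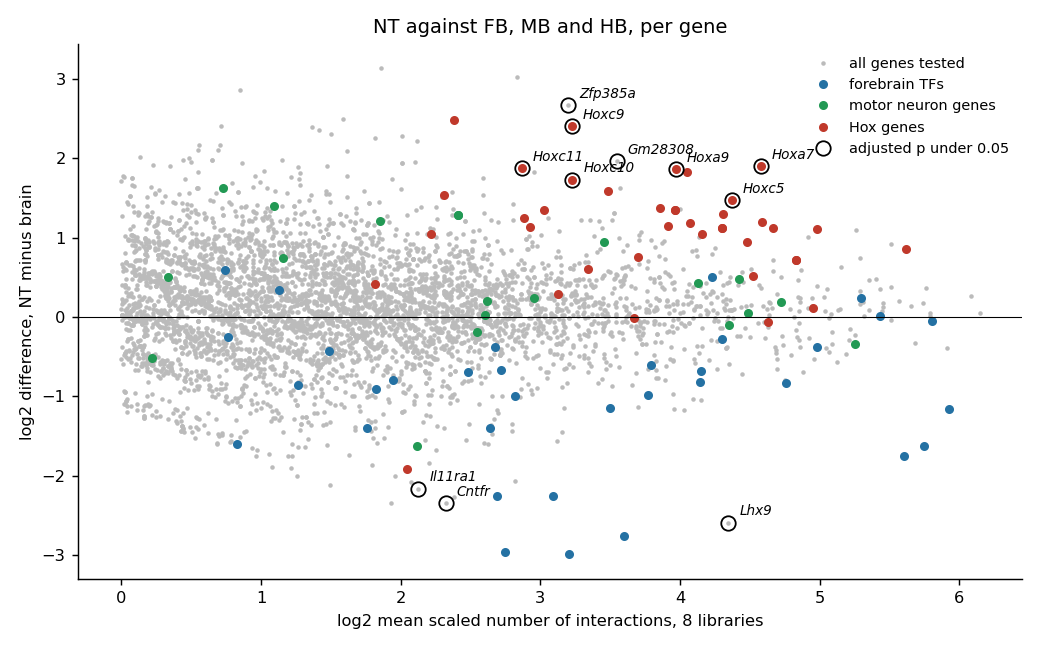
Each point is 1 of the 4805 genes tested, with the log2 mean scaled number of interactions over 8 libraries on the x axis and the log2 difference of NT minus brain on the y axis. Colours mark the Hox genes, the motor neuron genes and the forebrain transcription factors, and rings mark the 11 genes with an adjusted p under 0.05.

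HoxC held 4 called genes of 9. Hoxc9 (chr15:102976439-102985099, plus strand), a Hox gene of thoracic level, had 19 and 28 interactions in the NT libraries. The same gene had 4 and 3 in FB, 6 and 5 in MB and 3 and 3 in HB. Both NT libraries lay above every brain library, and no brain library exceeded 6. On the scaled numbers this is 25.3 ± 8.75 (SD, n = 2) against 4.05 ± 1.56 (SD, n = 6), a log2 difference of 2.40 ± 0.37 (SE) with an adjusted p of 0.0127 by limma.

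The neighbours of Hoxc9 on the side of higher group numbers, which are used at lumbar and sacral levels, moved the same way. Hoxc10 (chr15:102966796-102971893) had 19 and 20 interactions in NT and 3 to 8 in the brain libraries, a log2 difference of 1.73 ± 0.29 (adjusted p = 0.0132). Hoxc11 (chr15:102954427-102957708) had 14 and 18 in NT and 3 to 5 in brain, a log2 difference of 1.88 ± 0.35 (adjusted p = 0.0266). For both genes the groups did not overlap. Hoxc5 (chr15:102967443-103017429), a gene of cervical level, had 37 and 39 in NT and 7 to 25 in brain, with a log2 difference of 1.47 ± 0.27 (adjusted p = 0.0243). One of its annotated starts lies in the bin of Hoxc10, so part of its number is that of Hoxc10. With DESeq2 these 3 genes did not pass (adjusted p = 0.288 for Hoxc10, 0.296 for Hoxc11 and 0.108 for Hoxc5). Nor did they by limma over interactions whose other end holds no TSS (0.08 for each). Hoxc9, Hoxa7 and Hoxa9 passed in both, and Gm28308 in neither (0.0724 and 0.0589). With the same number of interactions per library the order changed. Hoxa7 and Hoxc10 then passed by limma (adjusted p = 0.0413 for each), and Hoxc9 and Hoxa9 did not (0.0575 for each). With 1 TSS, the outermost, per gene Hoxa9 did not pass by limma (adjusted p = 0.246).

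In all 9 HoxC genes tested both NT libraries lay above all 6 brain libraries in scaled number. Over all genes tested this held for 419 (8.72%). Hoxc4, Hoxc6, Hoxc8, Hoxc12 and Hoxc13 had log2 differences from 1.04 to 1.53 and did not pass the test. The HoxC bins held 0.507% and 0.713% of all interactions in the NT libraries and 0.162% to 0.266% in the brain libraries.

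Zfp385a (chr15:103313895-103340093, minus strand), which encodes a zinc-finger protein and lies on the Hoxc4 side of the cluster, had the largest difference of the 8 higher genes. It had 20 and 28 interactions in NT, 1 and 2 in FB, 2 and 4 in MB and 13 and 4 in HB. NT lay above every brain library, and HB replicate 1 stood apart from the other brain libraries. The log2 difference was 2.66 ± 0.45 with an adjusted p of 0.015, and with 1 TSS, the outermost, per gene it was 2.24 with an adjusted p of 0.131.

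The interactions of Zfp385a and of the HoxC genes are in part the same ones. Interactions called in both NT libraries and in none of the 6 brain libraries or the 3 pooled brain lists are called NT-only here. Of 57 NT-only interactions on chromosome 15, 27 joined a bin of the cluster, chr15:102920001-103040000, to a bin of chr15:103260001-103400000, which covers Zfp385a and 50 kb on either side. Of the 57, 9 had an end in a TSS bin of Zfp385a and 10 in that of Hoxc9.

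The NT-only interaction of HoxC with the highest observed/expected ratio in the pooled NT list joined the Hoxc9 bin, chr15:102970001-102980000, to chr15:103300001-103310000, over 330 kb. The ratio was 11.3 in NT replicate 1 (115 read pairs) and 8.14 in NT replicate 2 (113 read pairs), and 9.95 in the pooled NT list (188 read pairs). In the pooled brain lists this pair was not called. The adjoining pair at 340 kb was called in all 3, with ratios of 3.18 in FB, 2.28 in MB and 2.32 in HB, against 4.75 in NT. A pair that is absent from a list either missed the calling thresholds or was not tested in that tissue, and its ratio is not known.

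**Figure D2:**
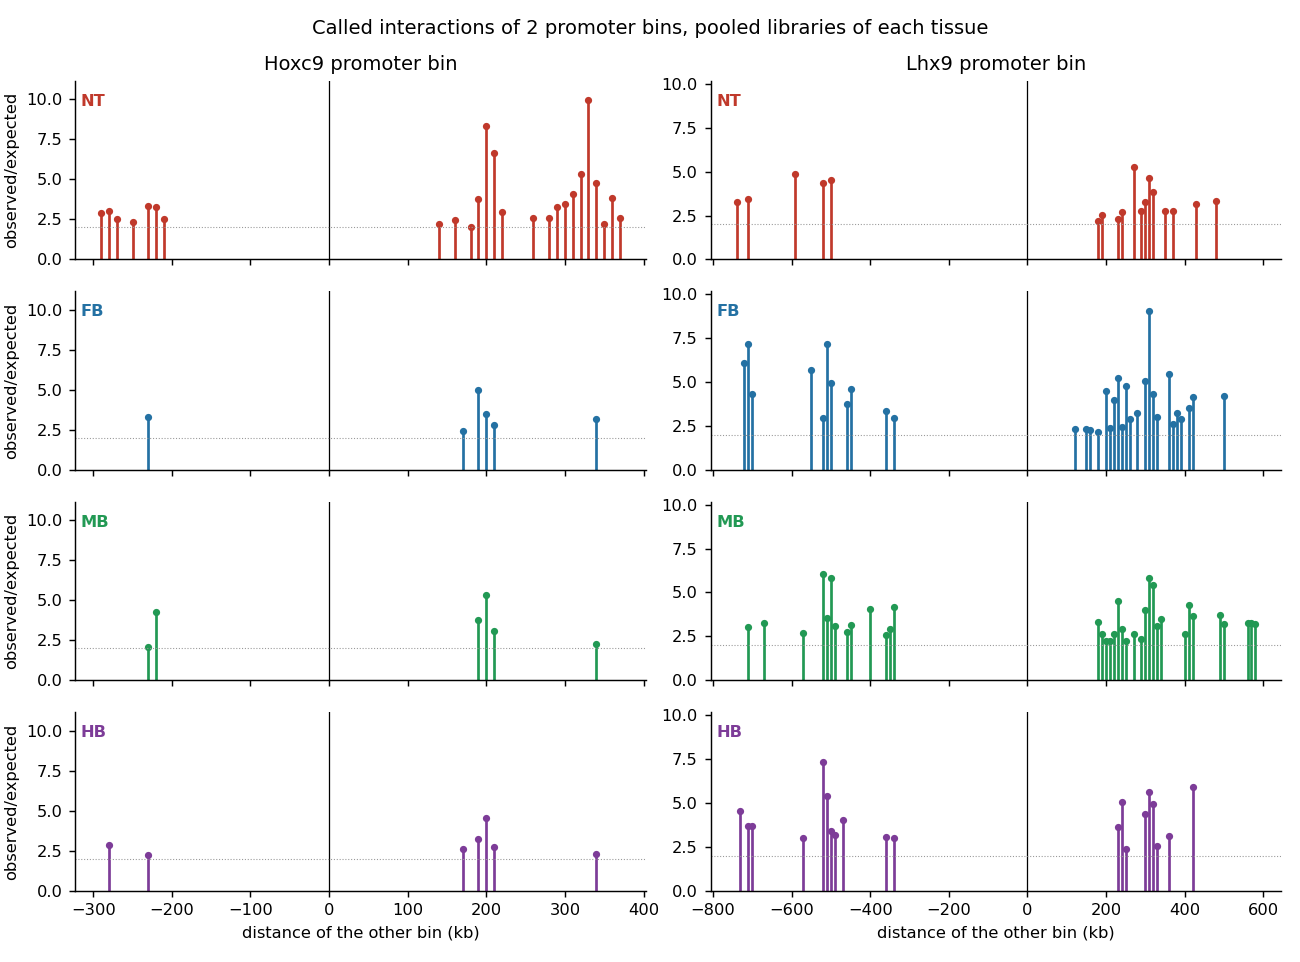
Observed/expected ratio (y axis) of the interactions called from the Hoxc9 bin (left) and from a promoter bin of Lhx9 (right), by distance of the other bin in kb (x axis), in the pooled list of each tissue, with a dotted line at the calling minimum of 2. The Hoxc9 bin has its highest value, 9.95 at 330 kb, in NT, where the brain lists have calls at 340 kb between 2.28 and 3.18.

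Of interactions called in all 8 libraries, the one most strengthened in NT also started in HoxC. Contact strength, as log2 of observed/expected read pairs, was tested for the 4431 interactions with a value in every library. In NT, 2 were stronger (0.0451% of those tested) and 1 was weaker (0.0226%), with 387 at an unadjusted p under 0.05. The pair chr15:102960001-102970000 to chr15:103180001-103190000, from the bin of Hoxc10 and the upstream start of Hoxc5 over 220 kb, had ratios of 7.62 and 7.61 in NT. The brain ratios were 2.87 and 2.96 in FB, 2.75 and 3.90 in MB, and 2.22 and 2.46 in HB. The groups did not overlap, and the log2 difference was 1.44 ± 0.21 with an adjusted p of 3.16e-05 by limma.

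The other stronger pair lay on chromosome 3 with Fnbp1l, a gene of membrane curvature and actin assembly, at its far end (140 kb, log2 difference 0.84 ± 0.18, adjusted p = 0.0442). The weaker pair joined chr6:51180001-51190000 to the bin of 5730596B20Rik at chr6:52170001-52180000, within HoxA, over 990 kb. Its ratios were 2.91 and 3.80 in NT and 6.22 to 9.19 in brain, a log2 difference of -1.26 ± 0.26 (adjusted p = 0.0263). Both NT libraries lay below all brain libraries. Leaving out NT replicate 1, NT replicate 2, MB replicate 1 or HB replicate 2 left 1 stronger and 0 weaker pairs. Leaving out FB replicate 2 or MB replicate 2 left 1 stronger pair, and leaving out HB replicate 1 gave 9.

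CTCF peaks at these anchors were read from 1 list per tissue, so their values have no replicate error and no test. The lists held 47596 peaks in NT, 43838 in FB, 49700 in MB and 46682 in HB, and 3660 NT peaks (7.69%) overlapped no peak of the brain lists. The HoxC cluster held 11 CTCF sites, of which 3 were in all 4 lists and 6 in the NT list alone. The 6 sites of the NT list alone had fold enrichments over input of 3.98 to 4.69, near the median of 3.98 of all NT peaks found in no brain list.

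One site stood apart among the shared ones. The peak in the bin of Hoxc10 and the upstream start of Hoxc5 had a fold enrichment of 42.9 in NT, 17.8 in FB, 15.0 in MB and 17.1 in HB. Of 34184 NT peaks found in all 4 lists, 2 (0.00585%) had an NT value at least 2 times each brain value, this one and 1 on chromosome 4. In the second deposited list of each tissue the site had 44.1 in NT and 19.2, 20.4 and 15.3 in FB, MB and HB. This site lies in the bin whose contact over 220 kb was stronger in NT.

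The CTCF sites with a fold enrichment of at least 7 in NT at the ends of the 330-kb contact of Hoxc9 are shown. They are given with 60 bases on either side of the NT peak summit, read from the mm10 genome on the plus strand. The far bin also held weaker peaks that are not shown, including a peak of 3.96 in the NT list alone. Capitals mark AGNNGGC, a core of the CTCF motif, on either strand (GCCNNCT on the minus strand), which occurred in 69.5% of 46567 windows of this length around NT peaks.
Hoxc9 bin, chr15:102970861-102970981: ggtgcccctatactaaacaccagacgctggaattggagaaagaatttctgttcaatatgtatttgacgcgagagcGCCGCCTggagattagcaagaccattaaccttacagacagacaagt
far end of the 330-kb contact, chr15:103307274-103307394: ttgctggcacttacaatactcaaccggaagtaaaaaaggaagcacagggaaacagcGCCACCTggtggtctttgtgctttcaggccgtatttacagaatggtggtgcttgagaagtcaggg

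Both sites held the core on the minus strand. The far site was strong in every list, with a fold enrichment of 43.3 in NT, 35.7 in FB, 39.8 in MB and 25.9 in HB. The site in the Hoxc9 bin lies within the Hoxc10 gene and not at the start of Hoxc9. It was weak, with 7.96 in NT, 10.0 in MB and 7.31 in HB, and had no peak in FB. At the far site NT thus had the highest value, and at the site in the Hoxc9 bin it lay between HB and MB. Whether CTCF goes with this contact was not tested.

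**Figure D3:**
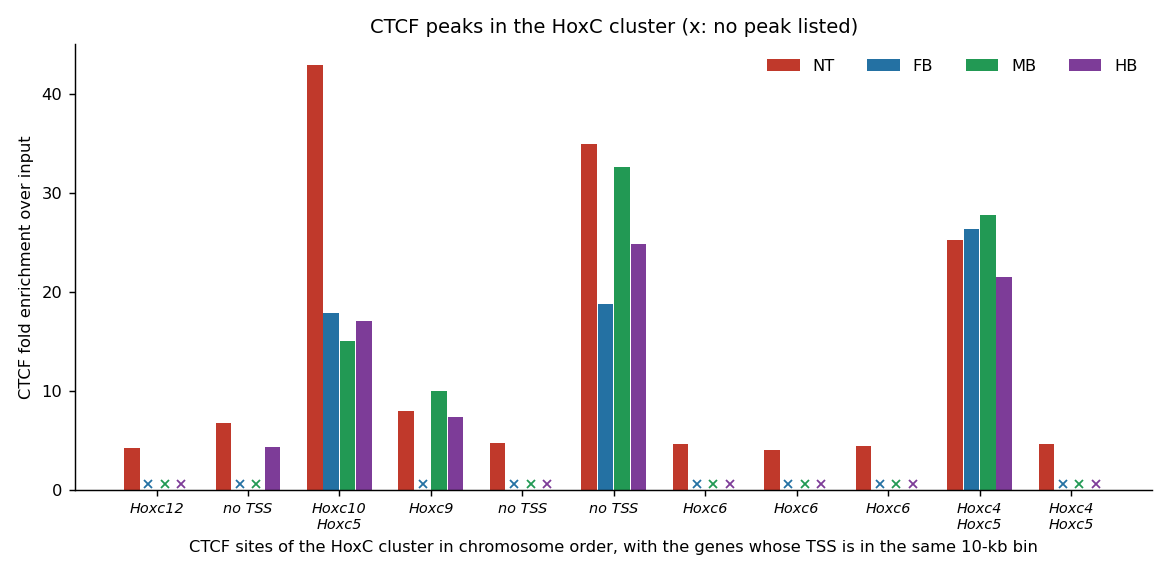
Fold enrichment of CTCF over input (y axis) at the CTCF sites of the HoxC cluster in chromosome order (x axis), 1 bar per tissue list and no bar where a list has no peak. The site in the bin of Hoxc10 and Hoxc5 has 42.9 in NT and 15.0 to 17.8 in the brain lists.

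HoxA held 2 called Hox genes, Hoxa7 and Hoxa9, and the overlapping predicted gene Gm28308. Hoxa7 (chr6:52214491-52221854, minus strand) had 47 and 54 interactions in NT, 15 and 9 in FB, 10 and 15 in MB and 18 and 20 in HB. Its scaled number was 53.9 ± 9.51 (SD, n = 2) in NT and 13.9 ± 3.14 (SD, n = 6) in brain. NT was far above all brain libraries, and the 3 brain regions lay close together. The log2 difference was 1.90 ± 0.28 with an adjusted p of 0.00975.

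Hoxa9 (chr6:52223100-52231089) had 31 and 35 in NT and 4 to 16 in brain (log2 difference 1.86 ± 0.30, adjusted p = 0.0132). Gm28308 (chr6:52163359-52213339), whose only TSS bin is one of the 2 of Hoxa7, had 23 and 28 in NT and 3 to 11 in brain (1.97 ± 0.36, adjusted p = 0.0243). Their NT and brain libraries did not overlap. Along the cluster, the log2 difference was 1.58 in Hoxa2, 1.82 in Hoxa3, which shares a bin with Hoxa7, 0.75 in Hoxa4, 1.35 in Hoxa5 and Hoxa6, which share a bin, 1.35 in Hoxa10, 1.04 in Hoxa11 and 0.29 in Hoxa13. Hoxa13, the gene of the tail end, had 9 and 10 interactions in NT and 6 to 10 in brain.

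Most HoxA interactions left the cluster on the side of the low group numbers, in every library. On this side lay 121 and 160 interactions in NT, 49 and 28 in FB, 44 and 52 in MB and 110 and 107 in HB. On the Hoxa13 side there were 14 and 17 in NT and 7 to 14 in brain. Of the 14 NT-only interactions of HoxA, the one with the highest ratio joined the bin of Hoxa7, Hoxa3 and Gm28308 to chr6:51380001-51390000 over 830 kb, with ratios of 4.51 and 5.46 in the NT libraries. A CTCF peak lay in both of its bins. The peak at the far end had a fold enrichment of 30.6 in NT and 24.9 to 28.2 in brain, and that in the Hoxa7 bin had 39.2 in NT and 21.4 to 29.7 in brain.

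**Figure D4:**
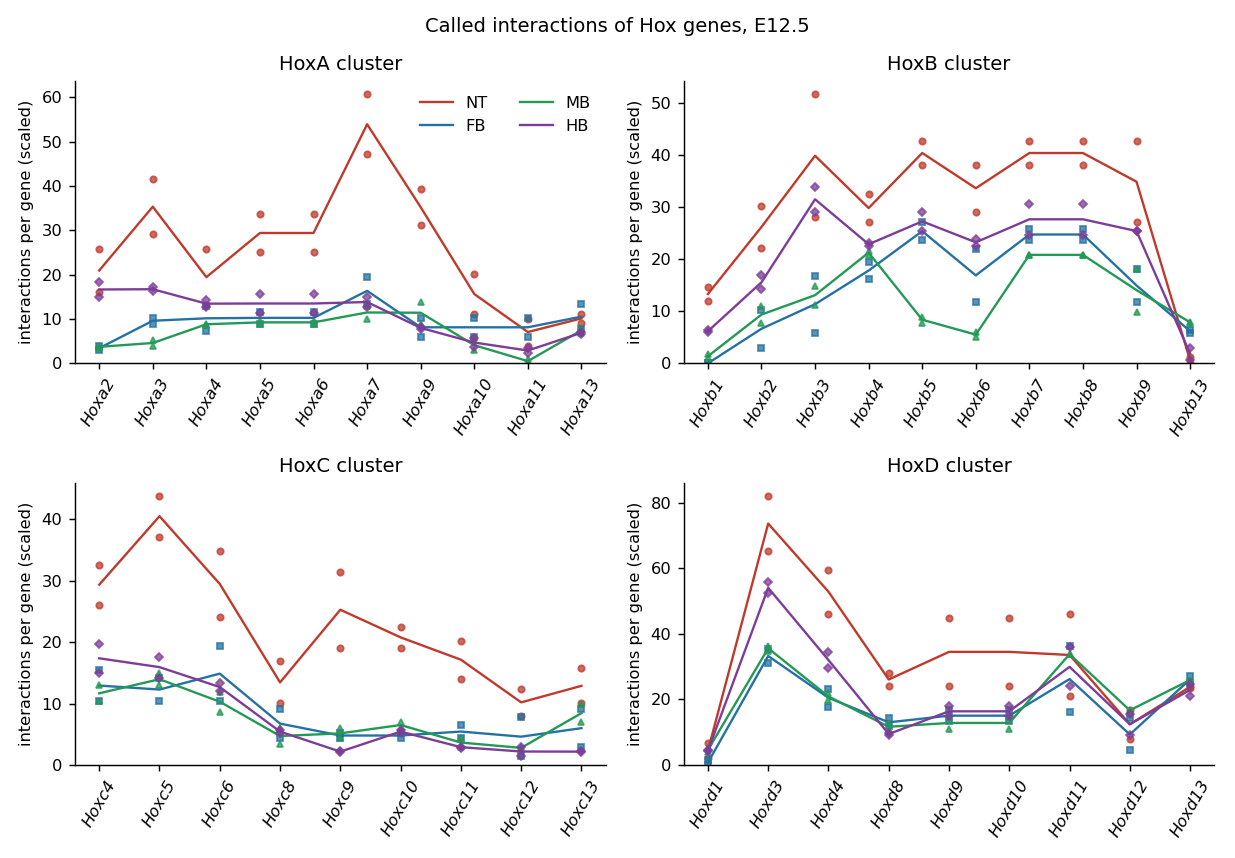
Scaled number of interactions (y axis) of Hox genes, in order of group number within each cluster (x axis). Points are libraries and lines tissue means. In HoxC the NT points lie above all brain points at every gene, whereas in HoxD the groups overlap at Hoxd1 and at Hoxd11 to Hoxd13.

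No gene of HoxB or HoxD passed the test, although most were higher in NT. HoxB bins held 0.929% and 1.25% of the interactions of the NT libraries, against 0.398% to 0.592% in FB and MB and 0.751% and 0.776% in HB. HoxD bins held 0.751% and 1.07% in NT and 0.460% to 0.685% in brain, and HoxA bins 0.578% and 0.845% in NT and 0.214% to 0.374% in brain. In each of the 4 clusters both NT libraries had a larger share than all 6 brain libraries (p = 0.0357 each by the exact permutation test and adjusted p = 0.0357 over the 4 clusters, the smallest the design allows). This test takes libraries of the same tissue as independent, and with tissues as the unit so small a p could not be reached. Without either NT library the smallest p that 7 splits allow is 0.143, which each cluster then had.

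In HoxB, HB lay between NT and the other brain regions at several genes. Hoxb1, which marks a single hindbrain segment, had 12 and 13 interactions in NT, 0 and 0 in FB, 1 and 2 in MB and 9 and 8 in HB. Hoxb13 went the other way, with 0 and 1 in NT, 5 and 4 in FB, 8 and 9 in MB and 1 and 4 in HB. Neither passed the test against all brain libraries (adjusted p = 0.236 and 0.253). In HoxD, Hoxd8 (log2 difference 1.14 ± 0.27), Hoxd4 (1.10 ± 0.29) and Hoxd3 (0.86 ± 0.30) were above all brain libraries in scaled number without passing the test. In unscaled number NT and HB overlapped for Hoxd3 and shared a value for Hoxd4, with 65 and 73 in NT and 79 and 70 in HB for Hoxd3 and 46 and 53 in NT and 42 and 46 in HB for Hoxd4. Hoxd11, Hoxd12 and Hoxd13 had log2 differences of 0.11, -0.01 and -0.06. Genes of the tail end in HoxD thus had numbers in NT that overlapped those in brain, with 24 and 21 in NT and 17 to 33 in brain for Hoxd13.

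Over the 39 Hox genes, all of which were tested, 6 were higher in NT, none was lower, and 36 had a positive difference (31 at an unadjusted p under 0.05). The median log2 difference was 1.13, against 0.125 over all genes tested, where 2849 of 4805 were positive. These counts were 35 to 36 positive under the other scalings. Neighbouring Hox genes share bins and interactions, so they are not independent of each other.

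Many HoxB interactions of NT started at no coding gene. Of 37 NT-only interactions whose first bin lay in the megabase of HoxB, 24 had an end in the bins of the long noncoding RNA Gm53 and of the microRNA gene Mir196a-1, which hold no protein-coding TSS and so entered no gene count. These bins lie between Hoxb9 and Hoxb13 and were picked after their values were seen, so no test was made. The Gm53 bin (chr11:96250001-96260000) had 28 and 30 interactions in NT, 3 and 0 in FB, 5 and 4 in MB and 3 and 4 in HB. The Mir196a-1 bin (chr11:96260001-96270000) had 14 and 24 in NT, 2 and 0 in FB, 5 and 5 in MB and 6 and 6 in HB. In the pooled lists the Gm53 bin had 40 in NT and 5 to 8 in brain, and the Mir196a-1 bin 27 in NT and 5 to 10 in brain.

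The other genes of miR-196, a microRNA that targets Hox transcripts, lie in bins already described. Mir196a-2 (chr15:102973350-102973434) is in the Hoxc9 bin, and Mir196b (chr6:52230081-52230165) is in a bin of Hoxa9 and Hoxa10 that had 7 and 9 interactions in NT and 0 to 6 in brain. Both NT libraries lay above all brain libraries in the 3 bins. The Mir196a-1 bin was picked by its values, and the others hold starts of the called genes Hoxc9 and Hoxa9. The 3 bins are thus not a separate result on miR-196, and the 8.72% of all genes tested is no measure for them. The genes of miR-10, the other microRNA of the clusters, lie in bins of Hoxb4 and Hoxd4. In unscaled number HB lay above NT in these bins, but the HB libraries held the most interactions in total. The Mir10a bin had 27 and 29 in NT, 11 to 25 in FB and MB and 32 and 31 in HB, and the Mir10b bin had 18 and 21 in NT, 6 to 10 in FB and MB and 25 and 24 in HB. In scaled number the Mir10a bin had 29.8 ± 3.86 (SD, n = 2) in NT and 20.7 ± 2.53 (SD, n = 6) in brain. By library it had 27.1 and 32.6 in NT and 22.6 and 23.2 in HB, so NT lay above HB. The Mir10b bin had a scaled 20.8 ± 3.90 (SD, n = 2) in NT and 12.3 ± 4.44 (SD, n = 6) in brain. The mature RNAs, from RefSeq on GRCm38.p6, are shown with the seed (bases 2 to 8) in capitals. The seed is shared, and 1 of 22 bases differs.
mmu-miR-196a-5p: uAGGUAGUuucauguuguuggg
mmu-miR-196b-5p: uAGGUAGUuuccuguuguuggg

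Lhx9 was the gene most clearly lower in NT. It encodes a LIM-homeodomain factor of dorsal spinal interneurons, thalamus and midbrain (chr1:138825186-138848577, minus strand). It had 3 and 3 interactions in NT, 26 and 17 in FB, 35 and 39 in MB and 24 and 16 in HB. Both NT libraries were far below the lowest brain library, and HB had the lowest of the brain numbers. Over all genes tested, both NT libraries lay below all 6 brain libraries in scaled number for 158 (3.29%). The scaled means were 3.19 ± 0.25 (SD, n = 2) and 26.0 ± 9.76 (SD, n = 6), a log2 difference of -2.60 ± 0.37 (adjusted p = 0.00975). In the pooled lists NT had 29 against 52 in FB, 61 in MB and 36 in HB, so the direction was the same and the gap narrower.

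Cntfr and Il11ra1, receptor genes of the ciliary neurotrophic factor and interleukin-11 pathways, share a bin on chromosome 4. Cntfr had 0 and 1 interactions in NT and 3 to 11 in brain, with a log2 difference of -2.34 ± 0.39 (adjusted p = 0.0132). Il11ra1 had 0 and 1 in NT and 3 to 9 in brain (-2.16 ± 0.41, adjusted p = 0.0278). At numbers this low the fitted difference depends on the pseudocount, and in the pooled lists Cntfr had 11 in NT and 10, 17 and 14 in FB, MB and HB. With edgeR, which scales the libraries by its own factors, the adjusted p was 0.0708 for Cntfr and 0.127 for Il11ra1. With edgeR on summed read pairs it was 0.622 and 0.827, and neither gene passed with DESeq2. By limma at distances of at least 50 kb it was 0.0921 and 0.127. Of the alternatives other than leaving out 1 library, Cntfr passed in 11 and missed in 8, and Il11ra1 passed in 8 and missed in 11.

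Forebrain transcription factor genes mostly had negative differences without passing this test. Of the 34 tested, 0 were called (14 at an unadjusted p under 0.05), 29 had a negative difference and the median was -0.83. Of all 4805 genes tested, 445 were at an unadjusted p under 0.05 and 1956 had a negative difference. Of 33 midbrain and hindbrain transcription factor and signal genes, 0 were called (8 at an unadjusted p under 0.05), 16 had a positive and 17 a negative difference, and the median was -0.07. Six3, a homeobox gene of the forebrain, had 13 and 16 interactions in NT, 64 and 67 in FB, 53 and 70 in MB and 39 and 46 in HB. Otx1, a homeobox gene of forebrain and midbrain, had 0 and 0 in NT, 9 and 9 in FB, 13 and 14 in MB and 4 and 1 in HB. NT lay below all brain libraries for both, as for 3.29% of all genes tested in scaled number, with an adjusted p of 0.114 for each. With 1 mean per tissue in place of 1 brain mean, the adjusted p was 0.00108 for Six3 and 0.00314 for Otx1. Tmc4, Nuak2 and Rplp1 had 0 and 1 interactions in NT and 2 to 10 in brain, with adjusted p from 0.0693 to 0.0798. In the pooled lists NT was not the lowest for Tmc4 (13 in NT and 10, 16 and 9 in FB, MB and HB) or Rplp1 (10 in NT and 17, 20 and 8), and was for Nuak2 (4 in NT and 8, 11 and 7).

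**Figure D5:**
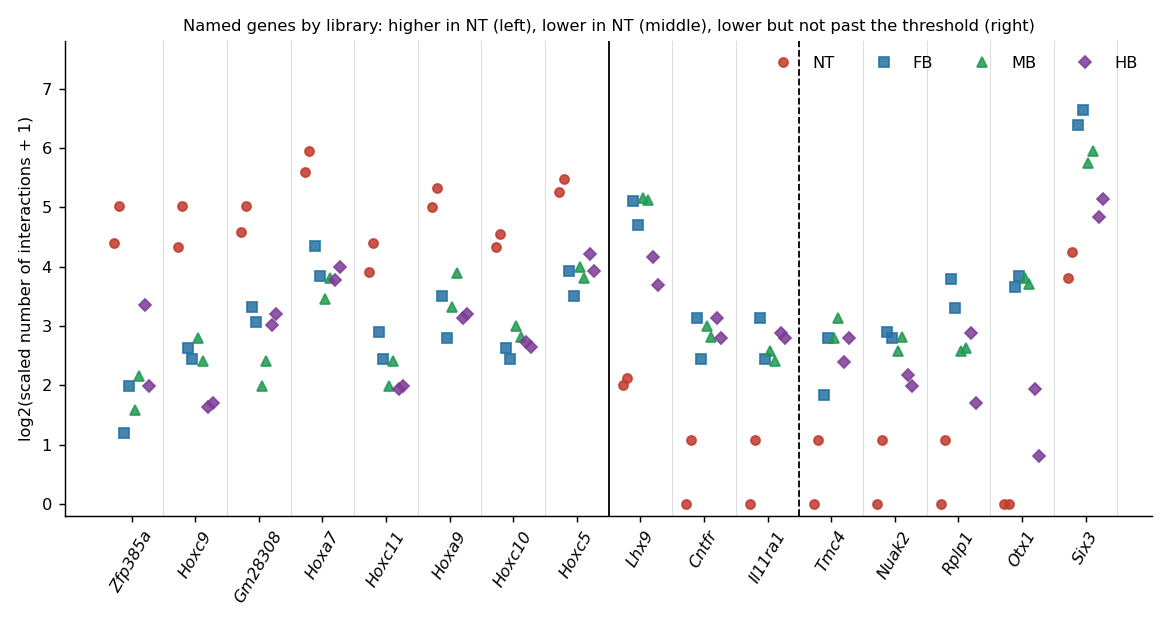
log2 of the scaled number of interactions plus 1 (y axis) of the named genes (x axis), with 1 point per library. For Zfp385a and the 7 other genes higher in NT, and for Lhx9, the NT points do not overlap those of FB, MB or HB.

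Set against each region alone, NT differed most from FB and least from HB. All 3 comparisons share the NT libraries. In a fit with 1 mean per tissue, 100 genes were higher in NT than in FB (2.08%) and 52 lower (1.08%). Against MB, 25 were higher (0.52%) and 8 lower (0.166%), and against HB, 2 were higher (0.0416%) and 1 was lower (0.0208%). The 3 genes called against HB were Hoxc9 (log2 difference 3.00 ± 0.36, adjusted p = 0.0144), Hoxa7 (1.88 ± 0.27, adjusted p = 0.0314) and Lhx9 (-1.86 ± 0.27, adjusted p = 0.0314). These counts move with single libraries. Leaving out 1 library of the pair gave 16 to 129 higher and 20 to 38 lower against FB, with 16 higher without NT replicate 2. Against MB it gave 2 to 8 higher and 1 to 7 lower, the fewest without either MB replicate, and against HB 0 calls in each of the 4 fits (195 to 468 genes at an unadjusted p under 0.05).

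Hox genes were 14 of the 100 genes higher than in FB, 14 of the 25 higher than in MB and both of those higher than in HB. Hoxa2, Hoxa3, Hoxb1, Hoxd3 and Hoxd4, among others, were higher than in both FB and MB, but not called against HB. For Hoxa2 the numbers were 16 and 23 in NT, 26 and 20 in HB and 2 to 4 in FB and MB, so NT and HB overlapped. One Hox gene was lower than in FB, Hoxb13 (log2 difference -2.30 ± 0.55, adjusted p = 0.0438). Whether a gene differs more from one brain region than from another was not tested.

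Of 34 forebrain transcription factor genes, 16 were lower in NT than in FB, 4 than in MB (Otx1, Six3, Lhx2 and Otx2) and 0 than in HB, and none was higher. Over all genes tested, 1.08% were lower than in FB, 0.166% than in MB and 0.0208% than in HB. Lhx2, a LIM-homeodomain gene of cortex and eye, had 16 and 17 interactions in NT, 86 and 83 in FB, 50 and 57 in MB and 45 and 40 in HB (log2 difference to FB -2.67, adjusted p = 5.13e-05). FB was above the other tissues in every library.

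Genes of motor neurons and spinal patterning differed from FB in a few cases. Of 20 motor neuron genes, 3 were higher than in FB, against 2.08% of all genes tested. These were Ret, a receptor for glial neurotrophic factors, and the acetylcholine genes Chat and Slc18a3, which share their bins. Chat had 7 and 10 interactions in NT, 0 and 1 in FB, 4 and 5 in MB and 11 and 9 in HB (log2 difference to FB 2.65, adjusted p = 0.0139). The values of HB overlapped those of NT. Olig2, a gene of motor neuron progenitors and oligodendrocytes, was lower than in FB, with 2 and 0 in NT and 8 and 7 in FB (-2.71, adjusted p = 0.0386). Lmo4, a LIM-only cofactor, was the 1 gene of this list higher than in MB (2.51, adjusted p = 0.021). Over all genes tested, 1.08% were lower than in FB and 0.52% higher than in MB. Against all brain libraries none of the 20 passed (3 at an unadjusted p under 0.05), and 15 had a positive difference. Of all 4805 genes tested, 445 were at that unadjusted p and 2849 had a positive difference.

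Of 19 genes of axial patterning and Hox cofactors none passed against all brain libraries. At an unadjusted p under 0.05 were 5 of them, against 445 of all 4805 genes tested. Meis1, a cofactor of Hox proteins, had 47 and 42 interactions in NT, 15 and 14 in FB, 13 and 22 in MB and 54 and 50 in HB. It was higher than in FB (log2 difference 1.20, adjusted p = 0.0188) and MB (1.53, adjusted p = 0.0089). Its scaled numbers in HB were 38.1 and 37.4, against 47.2 and 47.2 in NT, and it was not called against HB. Dhrs3, a retinaldehyde reductase of the retinoic acid pathway, was named after its values were seen. It had 17 and 7 interactions in NT, 0 and 0 in FB, 0 and 3 in MB and 0 and 2 in HB. NT lay above all brain libraries, and the adjusted p was 0.0513 against brain and 0.0242 against FB.

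Spinal interneuron and dorsoventral genes moved in both directions. Of 42 tested, 5 were higher than in FB (Tlx3, Foxd3, Pou4f2, Wt1 and Irx5) and 5 were lower, such as Lhx9, Lhx2 and Pax6. Over all genes tested, 2.08% were higher than in FB and 1.08% lower. Tlx3, a homeobox gene of dorsal interneurons and sensory neurons, had 7 and 12 in NT, 0 and 0 in FB, 0 and 4 in MB and 11 and 4 in HB. Of 25 neuronal maturation genes, 3 were higher than in FB (Ebf3, Nefm and Myt1l), and of 23 progenitor genes, 3 were lower (Sox1, Sox2 and Sox9). None of these lists had a gene called against all brain libraries except Lhx9. The unadjusted p was under 0.05 in 8, 5 and 1 genes, and in 445 of all 4805 tested.

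Markers of cells that a dissected neural tube could hold were read from the same counts. The summed scaled number of the neural crest, sensory ganglion and Schwann cell genes was 162 and 176 in NT and 90.3 to 164 in brain, so the groups overlapped. Of its 19 genes tested, 0 were called against brain (4 at an unadjusted p under 0.05), 15 had a positive difference and the median was 0.50. Tlx3, Foxd3, Kit and Tfap2a were higher than in FB. Of all 4805 genes tested, 445 were at that unadjusted p, 2849 had a positive difference and 2.08% were higher than in FB. Sox10, Erbb3, Mitf and Scn10a, which define crest, glia, melanocytes and sensory neurons, had 0 interactions in both NT libraries, but so did 14 of 25 housekeeping genes, and 5 genes of the crest list were at 0 in all 8 libraries. Sums were 144 to 171 in NT and 139 to 174 in brain for mesoderm and cartilage genes, 17.1 to 21.3 and 17.9 to 33.6 for skeletal muscle genes, 9.0 to 14.1 and 8.0 to 14.2 for endothelial genes, and 11.2 to 19.1 and 14.2 to 23.7 for blood genes. At 0 in all 8 libraries were 8 of 20 muscle genes (Myog and Myf5 among them), 9 of 20 endothelial genes (Cdh5 and Pecam1 among them) and 9 of 18 blood genes (Gfi1b among them), so a 0 does not separate NT from brain for these. A number of called interactions is not an expression level, and the part of these cells in the result was not tested.

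Over the genome, NT interactions joined promoters to promoters more often. The share with a protein-coding TSS in both bins was 17.4% and 19.6% in NT, 14.8% and 16.4% in FB, 16.7% and 15.8% in MB and 16.5% and 14.6% in HB. Both NT libraries were above all brain libraries, by 2.69 percentage points on average (p = 0.0357, exact permutation test). At an FDR under 0.001 the difference was 2.25 percentage points (p = 0.0714, exact permutation test), and without NT replicate 2 it was 1.57 (p = 0.286 by the same exact test). The median distance was 260 and 230 kb in NT and 260 to 290 kb in brain (p = 0.214, exact permutation test).

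The NT-only interactions numbered 305, of which 300 were also in the pooled NT list. A Hox bin was at an end of 65 of them (21.3%), against 4.77% of the 12159 interactions called in both NT libraries and 1.99% of the 4431 called in all 8 libraries. HoxC took 32, HoxA 14, HoxD 12 and HoxB 7. The numbers per Hox gene and this share rest on the same calls. When a call in a neighbouring bin counted as the same interaction, 62 NT-only interactions were left, 12 with a Hox end. Besides the Hox genes and Zfp385a, Dhrs3 had 5 NT-only interactions and Cux1, a homeobox gene, had 4, both named after their values were seen.

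The reverse set, called in all 6 brain libraries and in no NT list, held 191 interactions with a median distance of 270 kb, against 210 kb for the NT-only set. The median was also 270 kb over all 5572 interactions called in the 6 brain libraries, and 250 kb over those called in both NT libraries. None of the reverse set had a Hox end, against 1.7% of those 5572. In the reverse set 10 had a Six3 end, 2 an Lhx2 end and 1 an Lhx9 end. That of Lhx9 joined its promoter bin to chr1:138330001-138340000 over 510 kb, with ratios of 4.06 to 7.77 in the 6 libraries. CTCF peaks of NT lay in both bins of 37.7% of NT-only and 40.8% of brain-only interactions. The share was 44.3% of those called in both NT libraries, 48.4% in all 6 brain libraries and 51.8% in all 8 libraries.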

How the data were processed

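H3K4me3 PLAC-seq calls of 2 libraries each of NT, FB, MB and HB at E12.5 were used, with the pooled, downsampled calls and CTCF peak lists of the same tissues. The authors mapped reads to mm10 and called pairs of 10-kb bins with MAPS. Each deposited row gives a count of read pairs, the signal expected by the model (an expected value per pair), and an FDR, a p-value corrected by the authors. The CTCF lists give a fold enrichment ratio over input and a −log10 q-value as deposited by the authors from MACS2, for peaks of pooled libraries that overlap peaks of both. BWA, SAMtools, Juicer and MACS2 are named in the submitters' processing notes, without versions.

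Observed/expected ratios, interactions per gene (GENCODE M21, all protein-coding TSS) and shares were computed here with Python 3.11.15 and pandas 2.3.3. Numbers per gene, scaled to library totals, were tested on log2(number + 1) with limma 3.58.1 (trend, R 4.3.3) after a filter on a mean of at least 1, with Benjamini-Hochberg adjustment over all genes tested. Differences are on that log2 scale, which understates those of low numbers. Single values per library were tested by exact permutation. edgeR 4.0.16, DESeq2 1.42.0 and other scalings, filters and libraries left out were alternatives, and the limma step was tested on simulated data. Calls depend on depth, and the precision is that of 2 libraries per tissue. Genes and lists were chosen with earlier results of these data known. Named genes were those past the threshold with the largest differences, filled up to 8 per direction by p, all Hox genes, and in each list those past a threshold and the most numerous. X, Y and other tissues were not analysed here. Some genes and a sequence are not reported here.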

Additional observations from a re-analysis of the deposited data

Results flagged for a closer look

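In 2 of 18 values checked for a library that lies apart from the others of its group, the gap of 1 brain library exceeded Dixon's 95% limit for 6 libraries. Chance alone gives about 1 in 20. For Zfp385a the gap ratio was 0.725, with scaled numbers of 1.29 to 3.46 in the other brain libraries and 9.18 in HB replicate 1. NT, at 20.1 and 31.4, lay above that library as well. For the median distance of interactions the gap ratio was 0.667, with 290 kb in HB replicate 2 and 260 to 270 kb in the other brain libraries.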

How the results depend on the processing

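The differences of the 11 called genes kept their sign in the alternatives run. Under other scalings 35 to 36 of 39 Hox genes, 12 to 13 motor neuron genes (15 as reported) and 13 to 14 crest genes (15 as reported) were positive. With 8 genes higher and 3 lower in NT, the number higher was 1 without scaling, 2 with the same number of interactions per library, 14 at a pseudocount of 2, 3 for other ends without a TSS, 31 with 1 mean per tissue, 4 with DESeq2, 13 with edgeR on summed read pairs, 5 with a replicate block, 2 without MB and 22 without HB. The number lower was 0 with the same number per library, 1 at 50 kb or more, 17 with 1 mean per tissue, 1 with edgeR, 6 without FB, 1 without MB and 14 without HB. Leaving out 1 library gave 0 to 11 higher and 0 to 5 lower. Against FB, edgeR gave 41 higher and 24 lower and the same number per library 47 and 21, and leaving out 1 library 16 to 129 and 20 to 38. Against MB the same number per library gave 10 higher and 5 lower and edgeR 13 lower, and leaving out 1 library 2 to 8 and 1 to 7. Against HB, edgeR gave 6 and 3, the same number per library 0 and 0, and leaving out 1 library 0 to 0 in both directions. For strength, edgeR gave 16 stronger and 3 weaker and the replicate block 1 stronger, and leaving out 1 library 1 to 9 and 0 to 1. Promoter to promoter shares differed by 2.25 points at an FDR under 0.001 and by 1.57 to 3.81 without 1 library. Without 1 library the Hox shares differed by 0.286 to 0.553 points in HoxA, 0.374 to 0.691 in HoxB, 0.307 to 0.514 in HoxC and 0.179 to 0.499 in HoxD, totals by -4623 to -1098, and distances by -38.3 to -8.33 kb. Matching within 1 bin gave 62 NT-only (12 with a Hox end) and 35 brain-only interactions, and an FDR under 0.001 gave 106 brain-only ones. The causes were not tested, except that fits without NT libraries hold fewer samples.

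Of 209 values of the called genes under the other alternatives, 153 stayed past the threshold and 56 did not, and none of 22 did without 1 NT library. Replicate numbers did not pair the tissues (correlations of deviations from -0.0789 to 0.0448). Depth and H3K4me3 peaks limit what is called. A pair missing from a list may have had too few read pairs, or no H3K4me3 peak of that tissue in either bin.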
